A study of Bos taurus with 6 samples.

Results

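The unannotated loci are the rows of the gene count table that carry, in place of an Ensembl gene identifier, a prefix for loci outside the annotation followed by a number. They were taken by that prefix alone, which gave 1547 loci among 29154 features, beside 27607 Ensembl genes. The libraries came from MAC-T, a single immortalised line of bovine mammary epithelial cells, transiently transfected with X-tremeGENE. Cells of 3 libraries received NC inhibitor, a negative control oligonucleotide, and cells of 3 received miR-375 inhibitor, each at 100 nM for 48 h. RNA was enriched for poly(A) tails before sequencing. Counts summed over all features ran from 14479278 to 16324556 per library.

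Loci outside an annotation are in general a mixed class. They can be long non-coding RNAs, unannotated exons or extensions of known genes, transcribed pseudogenes, transcripts that start in transposable elements, or protein-coding genes that the annotation lacks. A miRNA such as miR-375 pairs through its seed with target RNAs and lowers their stability or translation, and an antisense inhibitor blocks that pairing. Both coding and non-coding transcripts can carry such sites. No unannotated locus is paired with a gene symbol in the tables used (0 of 1547), so each is given by the number in its identifier. Neither positions nor sequences of these loci were used here.

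The cell type could be checked on 2 of 34 listed markers, because the other symbols were not paired with an identifier used here. CLDN1, a tight junction protein of epithelia (ENSBTAG00000013148), had 200, 182 and 160 counts in NC inhibitor replicates 1, 2 and 3 and 129, 114 and 126 in miR-375 inhibitor replicates 1, 2 and 3. All 3 inhibitor libraries lay below all 3 controls, with a log2 fold change of -0.53 and an edgeR adjusted p of 0.022. That call was lost with at least 10 counts in total, with filterByExpr, with the bias-adjusted quasi-likelihood fit, in DESeq2 without independent filtering, without NC inhibitor replicates 1 or 2 and without miR-375 inhibitor replicates 1 or 3. Over all alternatives that gave a value, the adjusted p of CLDN1 from edgeR or DESeq2 ran from 0.00067 to 0.49. TP63, a transcription factor of basal epithelial cells (ENSBTAG00000015460), had 10, 14 and 16 counts against 4, 10 and 10, with an edgeR adjusted p of 0.65. Whether these marker levels bear on the unannotated loci was not tested.

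Nearly every unannotated locus was detected. At least 1 count was found for 1502 of the 1547 loci (97.1%), and 45 (2.91%) had none in any library. All 6 libraries held counts for 1319 loci (85.3%), against 14772 of 27607 Ensembl genes (53.5%). The remaining loci were seen in 5 libraries (50 loci), 4 (41), 3 (36), 2 (29) or 1 (27). Loci seen in a single library had a median of 1 count and at most 4. The rule by which the unannotated loci were added to the table is not given in the sources used here, so their detection rate and the way they were added cannot be told apart.

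Detection was even across the libraries. NC inhibitor replicates 1, 2 and 3 held counts for 1411, 1430 and 1420 unannotated loci, and miR-375 inhibitor replicates 1, 2 and 3 for 1415, 1417 and 1428. The groups overlapped and their means did not differ beyond the spread, at 1420 ± 9.5 and 1420 ± 7.0 loci (SD, n = 3, exact two-sided permutation p = 1, smallest possible 0.1). In every library a larger share of unannotated loci than of Ensembl genes was detected. The means over libraries were 91.8% (91.2 to 92.4%) and 60.6% (60.1 to 61.3%), higher for unannotated loci in 6 of 6 libraries (exact two-sided sign-flip permutation p = 0.031, the smallest that 6 libraries allow). The rule by which the loci were added is not given and could set this order, so no conclusion is drawn from this p. At a minimum of 10 counts the shares were 71.2% and 47.5%, again higher in 6 of 6.

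Counts on detected unannotated loci were low. The median over detected loci was 39.9 counts per library (37 to 43.5), and over detected Ensembl genes 217.5 (204 to 227). Unannotated loci had the lower median in 6 of 6 libraries (exact sign-flip permutation p = 0.031). The rule by which the loci were added could set this order too, so no conclusion is drawn from this p. The medians also cover only detected features, a larger share of unannotated loci than of Ensembl genes. Lengths of the loci were not used, so the medians give an order of counts and not of molecules. After thinning every library to the smallest total the medians were 37.7 and 205.8.

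By mean count over the 6 libraries, unannotated loci gathered in the middle range. Of the 1547 loci, 80 had a mean above 0 but under 1 count, 324 had 1 to 10, 665 had 10 to 100, 384 had 100 to 1000 and 49 had 1000 or more. Among Ensembl genes the same ranges held 2960, 3237, 3023, 6712 and 3321. The most filled range was thus 10 to 100 counts for unannotated loci (43.0% of them) and 100 to 1000 for detected Ensembl genes. A mean of at least 10 counts was reached by 1098 unannotated loci (71.0%). Among the detected loci the lower quartile was 8.88 counts, the median 34.1 and the upper quartile 122.

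A few loci carried most of the counts. Locus 10783 alone held 11.4% of all counts on unannotated loci, the 10 most abundant 31.2% and the 100 most abundant 66.0%. The same numbers of Ensembl genes, out of a far larger set, held 1.54, 7.20 and 23.2% of Ensembl counts. In all, 50% of the counts lay on 38 unannotated loci, which is 2.46% of all and 2.53% of the detected ones. For Ensembl genes that number was 745, or 2.70% of all and 3.87% of the detected ones. The 49 loci with a mean of at least 1000 counts held 54.2%, those with 100 to 1000 held 36.3% and those with 10 to 100 held 9.02%. The 404 detected loci under 10 counts held very little, 0.516% from 1 to 10 counts and 0.0125% below 1.

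Most of the abundant loci overlapped between the groups. Counts of a locus are given for replicates 1, 2 and 3 in that order, NC inhibitor first. Locus 10783 had 29664, 39222 and 34186 counts in the controls and 35115, 29829 and 37108 under miR-375 inhibitor, and it ranked 30 by mean count in the whole table. In CPM (counts scaled to the TMM-normalised library size) the highest library was a control, the lowest was an inhibitor library and the groups overlapped, and the log2 fold change was 0.02 ± 0.05 (SE, edgeR adjusted p = 0.93). Locus 16606 had 9622, 13350 and 11221 counts against 11577, 10309 and 12695. Its control libraries included both the lowest and the highest value, with a log2 fold change of 0.05 (edgeR adjusted p = 0.77).

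Locus 5950 had 7101, 9196 and 9849 counts in the controls and 9286, 8876 and 10440 under miR-375 inhibitor. Control replicate 1 was the lowest of the 6, and control replicate 3 lay above inhibitor replicate 2 in CPM, so the groups overlapped (log2 fold change 0.16, edgeR adjusted p = 0.11). Locus 33 had 3487, 4569 and 4532 counts against 4872, 4157 and 5042. After scaling to library size its groups did not overlap, at 239, 280 and 280 CPM against 323, 281 and 310, but the nearest libraries were close and the change did not pass (log2 fold change 0.19, edgeR adjusted p = 0.057). Locus 7956 had 5424, 6419 and 6798 counts against 5516, 4911 and 6091. Its groups overlapped, since control replicate 1 lay below inhibitor replicate 3 in CPM (log2 fold change -0.14, edgeR adjusted p = 0.18). Loci 5950 and 33 passed an edgeR adjusted p of 0.05 without NC inhibitor replicate 3 and without miR-375 inhibitor replicate 2, and locus 33 also with the robust fit. Over all alternatives the adjusted p ran from 9.9e-05 to 0.76 for locus 5950, from 0.00034 to 0.68 for locus 33 and from 0.012 to 0.74 for locus 7956. With single libraries left out the log2 fold change of locus 5950 ran from 0.079 to 0.24. It ran from 0.12 to 0.25 for locus 33 and from -0.19 to -0.095 for locus 7956.

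Locus 13150 varied least between replicates of these 10 loci, with 7662, 8573 and 8838 counts in the controls and 7921, 7718 and 8364 after the inhibitor. The controls all lay above the inhibitor libraries in CPM by a narrow margin, at 525.3 for the lowest control and 525.1 for the highest inhibitor library (log2 fold change -0.03, edgeR adjusted p = 0.82). The other abundant loci were 11556, 272, 4847 and 16882, with mean counts of 6182, 5576, 4458 and 3830. Their groups overlapped and their log2 fold changes were -0.09, -0.07, 0.05 and -0.12 (edgeR adjusted p = 0.53, 0.67, 0.77 and 0.43). Locus 16882 passed without NC inhibitor replicate 3, and its adjusted p over all alternatives ran from 0.014 to 0.9999.

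As a share of each library, unannotated loci took slightly fewer counts after miR-375 inhibitor. The shares were 1.926% (95% Wilson interval 1.919 to 1.933%), 2.009% (2.003 to 2.016%) and 1.935% (1.928 to 1.942%) in NC inhibitor replicates 1, 2 and 3. They were 1.924% (1.917 to 1.930%), 1.863% (1.856 to 1.870%) and 1.898% (1.892 to 1.905%) in miR-375 inhibitor replicates 1, 2 and 3. The inhibitor libraries were all below the controls, but control replicate 1 and inhibitor replicate 1 lay within each other's counting intervals. The means were 1.957 ± 0.046% and 1.895 ± 0.030% (SD, n = 3), a difference of -0.062 percentage points (exact permutation p = 0.1, two-sided), which is the smallest p that 3 against 3 libraries allow. Without NC inhibitor replicate 2, the library with the highest share, the difference was -0.035. These are shares of raw totals, without TMM scaling. The TMM factors were 1.007, 1.006 and 1.009 in NC inhibitor replicates 1, 2 and 3. They were 0.9907, 0.9921 and 0.9957 in miR-375 inhibitor replicates 1, 2 and 3. Scaling by them would lower the control shares and raise the inhibitor shares, and whether the groups would stay apart was not tested. A smaller share of these loci and a changed composition of the other features thus cannot be told apart. In bulk samples a smaller share from fewer cells that transcribe a locus and from less RNA per cell cannot be told apart.

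The difference in share was also seen without the top loci. Without the 10 most abundant loci the shares of raw totals were 1.355, 1.375 and 1.335% in the controls and 1.308, 1.299 and 1.284% after the inhibitor. The groups again did not overlap, with means of 1.355 ± 0.020% and 1.297 ± 0.012% (SD, n = 3, exact permutation p = 0.1). The top 10 loci themselves took 29.6, 31.6 and 31.0% of the counts on unannotated loci in the controls and 32.0, 30.3 and 32.4% after the inhibitor, with overlapping groups (exact permutation p = 0.4).

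Counts per locus were close between libraries. Over the 1502 detected loci the 15 pairs of libraries had a mean Pearson r of 0.988 on log2(CPM + 1), from 0.984 (NC inhibitor replicate 1 with miR-375 inhibitor replicate 3) to 0.990. This is a description across loci, which share the libraries and are not independent replicates. Pairs within a group (mean 0.989) and between groups (mean 0.988) had nearly the same values. By r, NC inhibitor replicate 3 was nearest to miR-375 inhibitor replicate 3 (0.9903), beside 0.9896 and 0.9869 with NC inhibitor replicates 2 and 1. Inhibitor replicate 2 was nearest to NC inhibitor replicate 2 (0.9894), beside 0.9884 with inhibitor replicate 1. NC inhibitor replicates 1 and 2 were nearest to each other (0.9899), as were miR-375 inhibitor replicates 1 and 3 (0.9904). The libraries still differed by more than counting error in every pair, since chi-square divided by its degrees of freedom was 2.06 to 5.82, so none was a copy of another.

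The spread between replicates followed the count. For loci with a mean of 10 to 30 counts the median coefficient of variation within groups was 26.0% (303 loci). The counting-error figure there, the inverse square root of the mean count, was 23.9%. These are unlike measures, since a coefficient from 3 libraries tends to fall below the true one. The excess over counting error may thus be larger than these 2 figures show. The median coefficient was 15.7% at 30 to 100 counts (362 loci), 9.36% at 100 to 300 (258), 7.18% at 300 to 1000 (126) and 5.54% at 1000 or more (49). Ensembl genes of the same ranges had 26.2, 15.0, 9.07, 5.85 and 4.09%. The ratio of their spread to that of Ensembl genes was therefore near 1 at low counts (0.993 and 1.05) and larger at high counts (1.23 and 1.35). The high ranges were not matched in count. From 300 to 1000 the median of the mean count was 458 for unannotated loci and 548 for Ensembl genes. At 1000 or more it was 1644 and 1891. At 1000 counts or more the ratio was 1.38 within the NC inhibitor group and 1.38 within the miR-375 inhibitor group. The counting-error figure there, with the same limit, was 2.47%. From 300 to 1000 counts the ratio was 1.31 within the controls and 1.08 within the inhibitor group. No test was made of these median coefficients.

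Unannotated loci did not fall evenly over the libraries of a group. Of the 1098 loci with a mean of at least 10 counts, NC inhibitor replicate 3 was the lowest of its group for 466 (42.4%), replicate 1 for 380 and replicate 2 for 252. In the other group miR-375 inhibitor replicate 3 was the lowest for 443 (40.4%), replicate 2 for 364 and replicate 1 for 291. The libraries numbered 3 were thus the most often lowest in both groups, and among Ensembl genes the same libraries were lowest for 36.1 and 34.4%. For Ensembl genes, however, miR-375 inhibitor replicate 2 was the most often lowest of its group (38.1%). The libraries numbered 3 were there the most often highest, for 37.45% and 36.99%. They were lowest in both groups at once for 240 unannotated loci (21.9%) and highest in both for 127 (11.6%), beside 18.1% and 19.9% of Ensembl genes.

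The most variable loci with a mean of at least 10 counts changed order from library to library. Locus 1492 had 23, 9 and 7 counts in the controls and 11, 7 and 20 after the inhibitor. Locus 12329 had 8, 39 and 27 counts against 34, 10 and 20. Locus 15686 had 15, 31 and 6 counts against 11, 13 and 29. In each of them the groups overlapped, and the highest control and the highest inhibitor library carried different replicate numbers. Locus 16618 had 11, 5 and 5 counts against 1, 15 and 26. Its inhibitor libraries included both the lowest and the highest value of the 6, and its edgeR adjusted p was 0.54.

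Few loci were seen in a single group. Counts were found only in NC inhibitor libraries for 24 loci and only in miR-375 inhibitor libraries for 23, with at most 5 and 11 counts in all. The same counts were not made over all features, so nothing is read from these numbers. They include by construction the 27 loci seen in a single library (1.75%), beside 5.56% of Ensembl genes seen in a single library. A count of 0 allows up to 3 counts in a library. Locus 914 had 0, 0 and 0 counts in the controls and 3, 3 and 5 after the inhibitor, which is at least 1.22-fold higher against a floor of 3 counts per library. It was present in every inhibitor library and in no control, and its edgeR adjusted p was 0.14. The others seen in all 3 libraries of one group only were locus 10298 (6, 1 and 1 counts) and locus 14729 (1, 1 and 2) after the inhibitor and locus 16597 (2, 1 and 2) in the controls.

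Both groups of those 3 loci were at or under the floor on average, so no fold is given. The same holds for locus 10404, with 1, 0 and 7 counts after the inhibitor and 0 in the controls. In the controls alone, locus 16474 had 4, 1 and 0 counts and locus 10899 had 0, 2 and 1. The loci with the most counts in a single library were locus 16272 with 4 in miR-375 inhibitor replicate 2, locus 16517 with 3 in miR-375 inhibitor replicate 3 and, among 6 loci tied at 2 counts, locus 407 in NC inhibitor replicate 2, taken for the smallest number. Locus 14729 was named after its values were seen.

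Changes between the groups were small for most unannotated loci and leaned to lower counts after miR-375 inhibitor. The median log2 fold change was -0.047 over the 1502 loci tested and -0.0019 over all 20755 features tested. The gap between these medians was -0.045. It was -0.024 without NC inhibitor replicate 2 (-0.026 against -0.0021) and -0.013 without miR-375 inhibitor replicate 3 (-0.028 against -0.015), so its size rested in part on these libraries. Among loci with a mean of at least 10 counts, 646 of 1098 (58.8%) were lower after the inhibitor, with a median of -0.054, beside 50.6% of all features. For the 433 loci with a mean of at least 100 counts, 63.3% were lower, beside 48.6% of Ensembl genes. Under a mean of 10 counts the direction was not lower, with 194 of 404 loci (48.0%).

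The same lean was looked at in each library, a summary chosen after seeing the data. It is the median over unannotated loci of the log2 difference from the mean of the 6 libraries. For loci of at least 10 counts it was 0.026, 0.051 and -0.011 in the controls and -0.0056, 0.0010 and -0.051 after the inhibitor. The groups overlapped, because control replicate 3 lay below inhibitor replicates 1 and 2, and the difference of -0.041 had an exact permutation p of 0.3. It was -0.026 without NC inhibitor replicate 2 and -0.024 without miR-375 inhibitor replicate 3. For loci of at least 100 counts the values were 0.022, 0.056 and -0.0018 against -0.0037, -0.015 and -0.041. These groups did not overlap, by a narrow margin, and the difference of -0.045 had an exact permutation p of 0.1, the smallest possible.

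In the edgeR quasi-likelihood test with Benjamini-Hochberg adjustment over all features, 22 of 1502 unannotated loci (1.46%) passed an adjusted p of 0.05, beside 1.69% of all features tested. Of these 17 (1.13%) were lower after miR-375 inhibitor, beside 1.2% of all features, and 5 (0.333%) were higher, beside 0.487%. At an unadjusted p of 0.05 the test took 167 unannotated loci (11.1%), beside 10.6%. Lower were 117 (7.79%), beside 5.96%, and higher were 50 (3.33%), beside 4.67%. The called share of unannotated loci was thus near that of the whole table. Of the 22 loci, 14 (63.6%) had groups that did not overlap, beside 227 of the 350 called features (64.9%).

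The 22 calls depended on the settings and on single libraries, as did the calls of the whole table. DESeq2 without independent filtering, which gives every tested locus an adjusted p, called 0 unannotated loci at an adjusted p of 0.05, beside 39 of 20755 features (0.188%), and 69 (4.59%) at an unadjusted p of 0.05, beside 5.63%. With its default filtering only 132 of 1502 loci, and 7 of the 22, had an adjusted p in DESeq2, and it called 0 of these 132, beside 74 of 6671 features (1.11%). With a filter of at least 10 counts in total edgeR called 0 loci and 0 features of the whole table, with 137 of 1386 loci (9.88%) at an unadjusted p of 0.05, beside 11.7% of all features. With filterByExpr it also called 0 loci and 0 features in all, with 118 loci (10.6%) unadjusted, beside 13.0%. The bias-adjusted quasi-likelihood fit called 0 loci and 8 features in all, with 153 loci (10.2%) unadjusted, beside 10.1%. Leaving out NC inhibitor replicate 1, 2 or 3 gave 0, 10 or 61 called loci, beside 0, 167 or 756 features in all. Leaving out miR-375 inhibitor replicate 1, 2 or 3 gave 4, 36 or 10 called loci, beside 125, 452 or 204 features. Each of the 22 loci failed the adjusted p in at least 1 of these fits. With single libraries left out, the count at an unadjusted p under 0.05 ran from 111 to 230. It was 111 (7.41%) without NC inhibitor replicate 1, beside 7.54% of all features. Without NC inhibitor replicate 3 it was 230 (15.4%), beside 13.1%.

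The lower loci with the smallest p were of moderate count. Locus 11161 had 184, 160 and 100 counts in the controls and 81, 90 and 49 under miR-375 inhibitor. Every inhibitor library lay below every control, although inhibitor replicate 2 (6.09 CPM) nearly reached control replicate 3 (6.18 CPM). Normalised counts were 148 ± 50 and 74.9 ± 25 (SD, n = 3), and the log2 fold change was -0.98 ± 0.19 (SE, edgeR adjusted p = 0.00078). Locus 11118 had 75, 82 and 44 counts against 26, 35 and 25. Its groups did not overlap and control replicate 3 was again the lowest control, with a log2 fold change of -1.19 ± 0.24 (SE, edgeR adjusted p = 0.0014).

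Locus 4195 had 256, 262 and 220 counts in the controls and 132, 192 and 119 after the inhibitor. The inhibitor libraries were all lower, with replicate 2 nearest to the controls, and the log2 fold change was -0.70 ± 0.14 (SE, edgeR adjusted p = 0.0011). Its neighbour in numbering, locus 4194, had 107, 132 and 124 counts against 69, 92 and 73. The groups did not overlap here either, and inhibitor replicate 2 was once more the highest of its group (log2 fold change -0.60 ± 0.16, SE, edgeR adjusted p = 0.032). Loci 11161, 11118, 4195 and 4194 all missed the edgeR adjusted p of 0.05 without NC inhibitor replicate 1. Over all alternatives their adjusted p ran from 1.1e-11 to 0.48, 1.1e-07 to 0.38, 4.4e-08 to 0.39 and 0.0023 to 0.38 in turn. Locus 4194 was also lost without NC inhibitor replicate 2 and without miR-375 inhibitor replicates 1 and 3. Locus 11161 was lost with the robust fit too (edgeR adjusted p = 0.43), which loci 11118, 4195 and 4194 passed.

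Other lower loci had smaller changes but tighter inhibitor groups. Locus 5973 had 251, 281 and 263 counts in the controls and 198, 185 and 210 after the inhibitor. The groups were well apart, with coefficients of variation of 3.33% and 2.43%, and the log2 fold change was -0.39 ± 0.11 (SE, edgeR adjusted p = 0.042). Locus 16473 had 441, 418 and 415 counts against 322, 338 and 325. All inhibitor libraries were lower, with a log2 fold change of -0.34 ± 0.09 (SE, edgeR adjusted p = 0.039). Locus 16972 had 235, 267 and 214 counts against 171, 173 and 177. Its inhibitor libraries were nearly equal and all below the controls (log2 fold change -0.43 ± 0.12, SE, edgeR adjusted p = 0.039). All 3 were lost without NC inhibitor replicates 1 or 2 and without miR-375 inhibitor replicates 1 or 3, and locus 5973 also without miR-375 inhibitor replicate 2. Over all alternatives their adjusted p ran from 0.0071 to 0.39, 0.0045 to 0.54 and 0.0024 to 0.48 in turn.

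Some called loci did not separate the groups. Locus 12627 had 246, 226 and 98 counts in the controls and 102, 140 and 72 after the inhibitor. Control replicate 3 lay below inhibitor replicates 1 and 2, yet the log2 fold change was -0.83 ± 0.19 (SE, edgeR adjusted p = 0.0094). Locus 13687 had 121, 104 and 69 counts against 42, 68 and 50. Control replicate 3 and inhibitor replicate 2 overlapped in CPM (log2 fold change -0.85 ± 0.20, SE, edgeR adjusted p = 0.0095). Both were lost without NC inhibitor replicate 1 and without miR-375 inhibitor replicates 1 or 3, and over all alternatives their adjusted p ran from 4.1e-14 to 0.9999 and from 1.6e-06 to 0.56. Locus 12627 was also lost with the robust fit (edgeR adjusted p = 0.69), which locus 13687 passed. For the 17 lower loci, the libraries numbered 3 were the lowest of both groups in 9 (52.9%). With a mean of at least 10 counts the share was 21.9% of all unannotated loci and 18.1% of Ensembl genes.

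Of the 5 higher loci, 14493 and 5830 separated the groups. Locus 14493 had 151, 187 and 184 counts in the controls and 236, 212 and 254 after the inhibitor. All inhibitor libraries were above all controls, at 236 ± 12 against 172 ± 9.6 normalised counts (SD, n = 3), and the log2 fold change was 0.46 ± 0.12 (SE, edgeR adjusted p = 0.021). Locus 5830 had 1514, 1691 and 1637 counts against 1879, 1884 and 1803. The groups did not overlap and the controls were close to each other in CPM (104, 104 and 101), with a log2 fold change of 0.23 ± 0.06 (SE, edgeR adjusted p = 0.027). Both were lost without NC inhibitor replicates 1 or 2 and without miR-375 inhibitor replicate 1. Locus 14493 was also lost without miR-375 inhibitor replicate 3, and locus 5830 without replicate 2 of that group. Over all alternatives their adjusted p ran from 0.0018 to 0.39 and from 0.00092 to 0.39.

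The other 3 higher loci overlapped between the groups. Locus 14319 had 13, 8 and 7 counts in the controls and 85, 9 and 20 after the inhibitor. Inhibitor replicate 1 stood far above the other libraries, and inhibitor replicate 2 lay within the controls. The log2 fold change was 2.04 ± 0.45 (SE, edgeR adjusted p = 0.0048), and without that library it was 0.63 (edgeR adjusted p = 0.84, range over all alternatives 4.4e-08 to 0.84). Locus 6028 had 423, 553 and 470 counts against 810, 584 and 492. Inhibitor replicate 1 was again the highest, and the log2 fold change of 0.42 (edgeR adjusted p = 0.018) was 0.18 without it. Locus 10780 had 332, 280 and 203 counts against 444, 389 and 297. Each group had its highest value in replicate 1 and its lowest in replicate 3 (log2 fold change 0.50 ± 0.13, SE, edgeR adjusted p = 0.023). That change was 0.31 without NC inhibitor replicate 3 and 0.73 without NC inhibitor replicate 1. Locus 14319 was also among the most variable loci. All 3 were lost without NC inhibitor replicate 1 and without miR-375 inhibitor replicate 1, and locus 10780 also without NC inhibitor replicates 2 or 3. The robust fit lost all 3 as well, with edgeR adjusted p of 0.63, 0.66 and 0.69 for loci 14319, 6028 and 10780.

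The remaining called loci were lower after the inhibitor by less than 1 on the log2 scale. They were loci 4773, 7622, 2635, 2795, 146, 8173, 166 and 13742, and each was lost without NC inhibitor replicate 1 and at least 2 other libraries left out singly. Loci 4773 and 2795 were also lost with the robust fit (edgeR adjusted p = 0.60 and 0.68). Over all 22 the log2 fold changes ran from -1.19 to 2.04 with a median of -0.37, and the mean counts from 23.7 to 1792 with a median of 305. The called share was larger at higher counts, as it was among Ensembl genes. The test called 4 of 665 loci with 10 to 100 counts (0.602%), 14 of 384 with 100 to 1000 (3.65%) and 4 of 49 with 1000 or more (8.16%), beside 0.728, 1.89 and 5.36% of Ensembl genes. Those 4 most abundant called loci were 2795, 5830, 166 and 8173. Under a mean of 10 counts edgeR called 0 of 404, with 17 (4.21%) at an unadjusted p under 0.05, beside 1 and 125 (2.02%) of 6197 Ensembl genes, and DESeq2 without independent filtering called 0 of 1502 loci of any count at an adjusted p of 0.05, with 69 unadjusted.

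A criterion that adds the size of the change took mostly loci of low count, as it did among Ensembl genes. An unadjusted p under 0.05 with an absolute log2 fold change over 1 was met by 24 unannotated loci in edgeR (1.6%), beside 0.896% of all features. Lower were 11 (0.732%), beside 0.569%, and higher were 13 (0.866%), beside 0.328%. Of the 24 loci, 17 had a mean under 10 counts, where a fold change rests on few fragments, and 7 had 10 to 100. Among Ensembl genes that met it, 125 had a mean under 10 counts, 32 had 10 to 100 and 5 had 100 to 1000. The criterion was met by 14 loci (0.934%) without NC inhibitor replicate 1, beside 0.577% of all features, and by 7 (0.632%) with filterByExpr, beside 0.331%. Among all unannotated loci of at least 10 counts, 7 (0.638%) had a log2 fold change beyond 1 in either direction, beside 0.311% of all features. These were loci 11118, 14319, 6200, 7373, 8121, 10998 and 13690. The 2 shares were not matched for count, since all 7 loci had a mean of 10 to 100 counts. In that range the criterion was met by similar shares, 7 of 665 unannotated loci and 32 of 3023 Ensembl genes. Single libraries left out brought the change within 1 for locus 8121 (-0.56 without NC inhibitor replicate 1). The same was seen for loci 14319, 6200, 7373 and 13690.

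By the same criterion DESeq2 took 9 unannotated loci (0.599%), beside 0.304% of all features, 2 sets that were not matched for count. Lower were 5 (0.333%), beside 0.231%, and these were loci 4517, 8058, 10998, 11118 and 13690. Higher were 4 (0.266%), beside 0.0723%, and these were loci 914, 6200, 7373 and 14319. All 9 also met it in edgeR, and 3 had a mean under 10 counts. Loci 4517 and 8058 were named after their values were seen.

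The larger of these changes that did not pass an adjusted p came at low counts. Locus 6200 had 8, 13 and 17 counts in the controls and 27, 31 and 25 after the inhibitor. The groups did not overlap, with a log2 fold change of 1.16 ± 0.34 (SE, edgeR adjusted p = 0.061). Locus 3163 had 22, 25 and 27 counts against 44, 37 and 52. Its groups were apart too and its controls nearly equal (log2 fold change 0.87 ± 0.25, SE, edgeR adjusted p = 0.051). Locus 10998 had 17, 11 and 18 counts against 8, 3 and 5. All inhibitor libraries were lower, with a log2 fold change of -1.48 ± 0.50 (SE, edgeR adjusted p = 0.15). Locus 6200 passed without NC inhibitor replicate 3, and locus 3163 without that library, without miR-375 inhibitor replicate 2 and with DESeq2 size factors in edgeR. Over all alternatives the adjusted p ran from 0.015 to 0.54 for locus 6200, from 0.013 to 0.53 for locus 3163 and from 0.091 to 0.71 for locus 10998.

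Locus 7373 had 8, 14 and 17 counts in the controls and 24, 19 and 42 after the inhibitor. Inhibitor replicate 3 was far above the rest, and the lowest inhibitor library was close to the highest control (log2 fold change 1.14, edgeR adjusted p = 0.076). It passed without NC inhibitor replicate 3 and without miR-375 inhibitor replicate 2, and its adjusted p over all alternatives ran from 0.016 to 0.61. Locus 13690 had 19, 22 and 26 counts against 15, 6 and 11, and locus 8121 had 24, 9 and 14 against 6, 8 and 8. Both were lower in every inhibitor library in CPM, the latter by a narrow margin (edgeR adjusted p = 0.20 and 0.36). Loci 91 and 15045 were higher in every inhibitor library, with log2 fold changes of 0.92 and 0.78 (edgeR adjusted p = 0.31 and 0.39).

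Among the 1098 loci with a mean of at least 10 counts, 177 (16.1%) had groups that did not overlap in CPM, beside 17.9% of all features. Lower after the inhibitor were 117 (10.7%), beside 8.83%, and higher were 60 (5.46%), beside 9.06%. The total was thus near the background, and lower loci outnumbered higher ones among unannotated loci while both directions were about equal over the table.

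Identifier numbers of the 1547 loci ran from 1 to 17251. There were 307 pairs of consecutive numbers, and 512 loci lay in 205 runs of 2 or more, the longest of 10. Whether consecutive numbers mark neighbouring pieces of one transcript was not tested, since positions were not used. In the 124 consecutive pairs where both loci had a mean of at least 10 counts, 70 had the same sign of change. The correlation of log2 fold changes was 0.15 across pairs, which come from the same libraries. Of single loci of such counts 58.8% were lower, and no rate was computed for pairs that are not consecutive. No likeness of consecutive loci is thus read from these values.

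In 5 consecutive pairs both loci had an unadjusted p under 0.05, and in each pair both had the same direction. In 53 further pairs 1 locus had such a p, and 11.1% of single loci had one, and no test was made of the number of pairs. Of the 167 single loci with such a p, 117 were lower, so a shared direction was common without any link. Lower were locus 4194 with locus 4195, locus 7956 with locus 7957, locus 8121 with locus 8122, and locus 9303 with locus 9304. Higher was locus 1457 with locus 1458. Locus 8122 had 91, 95 and 106 counts in the controls and 43, 64 and 82 after the inhibitor. It was lower in every inhibitor library, with a log2 fold change of -0.60 ± 0.18 (SE, edgeR adjusted p = 0.072). Locus 4194 with locus 4195 was the only pair in which both passed the adjusted p. The members of these pairs numbered 1457, 1458, 7957, 8122, 9303 and 9304 were named after their values were seen.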

How the data were processed

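The labels and the study's methods give an experiment in triplicate in multi-well plates and do not state whether the 3 libraries of a group came from separate cultures, so p-values measure only the spread between these samples, which may be technical. The authors deposited raw counts per feature. The submitters' processing notes name HISAT2, featureCounts (Subread), DESeq2 and UMD 3.1. The tool that added the unannotated loci and the strand setting of the counting are not given in the sources used here, so overlapping and antisense transcripts cannot be told apart. Members and lists were chosen with earlier results of these data known. Features with at least 1 count in any library were fitted together in edgeR 4.0.16 (R 4.3.3) with TMM scaling, the quasi-likelihood test and Benjamini-Hochberg adjustment, and DESeq2 1.42.0, the study's tool, was an alternative. Scripts were tested on simulated data. Normalised counts are scaled to the mean TMM library size. Descriptions and exact permutation tests used Python 3.11.15, numpy 2.4.6, scipy 1.17.1 and pandas 2.3.3. The per-library medians of log2 differences were added after seeing the data. Wilson intervals and the floor of 3 counts cover counting error only. Other scalings, low-count filters, fits, a block by replicate number and each library left out were tried. Named loci were the 10 most abundant, every called locus, up to 5 per direction with the smallest p past a log2 fold change of 1 (3 higher and 4 lower were found), the 5 per direction with the largest change and groups apart, the 5 most variable (these at a mean of at least 10 counts), the 3 with the most counts in a single library and the 3 per direction seen in a single group.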

Additional observations from a re-analysis of the deposited data

How the results depend on the processing

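The count of unannotated loci at an adjusted p under 0.05 (22) fell to 0 in DESeq2 without independent filtering, in DESeq2 with it, where 132 loci had an adjusted p, with at least 10 counts in total, with filterByExpr and with the bias-adjusted quasi-likelihood fit. It ran from 0 to 61 with single libraries left out. The prior degrees of freedom were 51.4 for the 22 calls, 9.46 with at least 10 counts in total, 8.26 with filterByExpr and 12.6 in the bias-adjusted fit, and the cause was not tested. DESeq2 size factors gave 24 (1.60%, beside 1.73% of all features), no filter 16 (1.03%, beside 0.991%) and the robust fit 21 (1.40%, beside 1.30%). At an unadjusted p (167) both DESeq2 runs gave 69, and single libraries left out gave 111 to 230. With a log2 fold change over 1 (24) both DESeq2 runs gave 9 and filterByExpr 7, where fewer loci of low count were tested. Single libraries left out gave 14 to 34, the latter without NC inhibitor replicate 3 (2.27%, beside 1.16% of all features). The difference in detected loci (-0.33) turned with single libraries left out, from -5 to 4.5, including 2.17 and 1.17. The difference in share of raw totals stayed negative, from -0.077 to -0.035 percentage points, and TMM-scaled shares were not tried. The median log2 fold change also stayed negative, from -0.063 to -0.026. Its gap to the median of all features (-0.045) ran from -0.056 to -0.013, the smallest without miR-375 inhibitor replicate 3. The bias-adjusted fit, DESeq2 without independent filtering and the block with the 10-count filter were chosen after seeing the data.

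With a replicate block the adjusted count was 58 (3.86%, beside 4.05% of all features), or 31 (2.24%, beside 2.80%) together with at least 10 counts in total. Under the block alone loci 33, 3163, 5950, 6200, 7373 and 7956 passed too. With a log2 fold change over 1 the block gave 14 (0.932%, beside 0.477%). Equal numbers did not pair these libraries throughout. Deviations from the group means over 14154 features correlated at -0.06, 0.15 and 0.34 for numbers 1, 2 and 3. NC inhibitor replicates 2 and 3 each correlated best with the inhibitor library of the same number. NC inhibitor replicate 1 correlated best with miR-375 inhibitor replicate 2 (0.25).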
